A study of Mus musculus with 2 samples.

Results

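The miRNAs of the Sfmbt2 intron cluster are the mouse miRNAs of the miR-297, miR-466, miR-467 and miR-669 subfamilies. They were taken here by name: every counted mature miRNA with 1 of these numbers and a letter, with or without a copy number and an arm, which gave 80 of the 1905 mature miRNAs counted. The names hold 6 of miR-297, 31 of miR-466, 13 of miR-467 and 30 of miR-669. By arm, 33 are 5p miRNAs (from the 5′ side of the hairpin), 35 are 3p miRNAs (from its 3′ side) and 12 carry no arm in their name.

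The counts came from sncRNA-Seq of the testes of C57BL/6 mice (C57BL/6J in the study's methods) at postnatal day 60, with 1 library of control mice and 1 library of exposed mice. Exposed mice received a mixture of EDCs (endocrine disruptors) in the drinking water from post-coital day 0.5, first through the mothers. The phthalates DEHP, DBP and BBP were dosed at 0.3 mg/kg/day each, and the alkylphenols NP and OP at 0.05 mg/kg/day each. Control mice received the vehicles alone, DMSO (0.25 g/kg/day) and ethanol (0.06 g/kg/day). Each library was made from a pool of testis RNA in equal amounts (n = 3), so that the spread between mice cannot be seen and each group has 1 value.

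Sfmbt2 encodes a Polycomb group protein and is an imprinted gene, expressed from the paternal allele in early embryos and in extraembryonic tissue. The large miRNA array in its intron is specific to rodents and is best known from the placenta and from embryonic stem cells. A mature miRNA guides a silencing complex to messenger RNAs mainly through its seed, bases 2 to 8 from the 5′ end, so that copies which share a seed can share targets.

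The subfamilies are known for repeats of a dinucleotide, and reads of such sequences can be hard to place on 1 hairpin. Mature sequences were matched by name in the RefSeq table (GRCm38.p6) for 8 of the 80 names, all of them from hairpins outside chromosome 2. The 3 of these that had any read are shown first, followed by 1 relative from miR-467 and 1 from miR-669 with 0 reads in both libraries. Capitals mark the seed.
miR-466i-3p, chr13:17747552-17747573, plus strand: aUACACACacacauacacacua
miR-466k, chr3:85467396-85467418, plus strand: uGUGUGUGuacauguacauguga
miR-466q, chr3:28419988-28420007, plus strand: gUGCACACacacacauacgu
miR-467f, chr11:69635419-69635439, minus strand: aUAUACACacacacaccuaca
miR-669n, chr3:115979905-115979924, plus strand: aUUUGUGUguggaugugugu
The seeds of these 5 differ from each other. A run of at least 8 bases that alternates A with C or G with U, read on the mature strand, was found in 6 of the 8 matched names, and in 13 of the 1679 mature names of the table (0.774%). The 8 names had few reads: miR-466i-3p and miR-466k had 1 read in each library, miR-466q had 0 in control and 3 in exposed mice, and the other 5 had 0 in both.

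In the RefSeq gene table of the same build, 82 hairpins carried names of these subfamilies. Of these, 72 lay inside Sfmbt2 on chromosome 2 (chr2:10370440-10595253), and no other miRNA gene lay inside it. By the GENCODE annotation, all 72 are on the strand of the host gene. They span 51.6 kb, from chr2:10466663 to 10518279, and all fall within a single intron of 62472 bp (chr2:10461473-10523944, intron 10 or intron 11 depending on the annotated transcript). The middle of the array repeats a trio of hairpins in the order miR-467, miR-466, miR-669. There were 12 such trios. The miR-466 hairpin began 282 to 292 bp and the miR-669 hairpin 502 to 518 bp after the start of the miR-467 hairpin, and the trios followed each other at a median of 2452 bp from start to start. The other 10 hairpins lay outside Sfmbt2.

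Many hairpins share 1 name, so a count of reads can belong to several copies. Of 44 names without their arm, 34 had 1 hairpin and 9 had several, among them miR-669a with 12, miR-467a with 10, miR-466b with 8 and miR-466c with 3. No hairpin was matched by name for miR-466a, whose 2 names held 19 reads in control and 12 in exposed mice. A hairpin named Mir466, without a letter, lies in Sfmbt2, 41.3 kb from the first hairpin. No counted name was assigned to it, and whether it gives miR-466a was not tested. The 69 names with a hairpin in Sfmbt2 held 2244 of the 2265 reads of the cluster in control mice and 1637 of 1654 in exposed mice. The 9 names with hairpins only elsewhere held 2 and 5 reads. Thus nearly all reads described below carry names of the intronic array, although a few of those names also have a copy elsewhere, as miR-297a does.

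The mature miRNA reads summed to 550261 in control and 501539 in exposed mice, and the size factors (median of ratios) were 1.07 and 0.937. The 4 listed germ cell miRNAs, among them miR-34c-5p, took 16.5% and 15.3% of the reads, the miR-202 pair of somatic gonad cells 0.437% and 0.479%, and miR-122-5p of the liver had 0 reads and 1 read, so that both libraries carried miRNAs of the testis. In such bulk samples, fewer cells of a type and less RNA per cell cannot be told apart. Of all 484 mature miRNAs tested, 264 had a log2 ratio of exposed to control mice below 0 and 220 above, with a median of −0.04.

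The cluster was a small share of the miRNAs of the testis. Its 2265 reads in control mice were 0.412% of the library, and its 1654 reads in exposed mice were 0.330%. At least 1 read was found for 59 of the 80 names, 56 in control and 52 in exposed mice, and 21 had 0 reads in both. The 7 names with reads in control mice alone had at most 5 and the 3 with reads in exposed mice alone at most 3. A count of 0 allows a share of up to 0.000545% in the control library and 0.000598% in the exposed library (the share of 3 reads), so absence of these names was not shown.

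A few members carried most of the reads. The 4 most-read took 54.3% of the cluster's reads in control and 53.4% in exposed mice, and the 10 most-read 77.4% and 78.1%. miR-467a-5p, with 10 hairpins, was the most-read member in control mice (399 reads) and ranked 135 among all mature miRNAs there. In exposed mice it had 250 reads and ranked 148, and miR-669a-3p (380 reads in control, 280 in exposed mice) was the most-read member instead. miR-669c-5p, which comes from 1 hairpin, had 318 and 238 reads, close behind these names with 10 and 12 hairpins. miR-669a-5p had 134 and 116 reads, miR-466b-3p 132 and 82, and miR-467e-5p 120 and 99. The most-read members therefore included names with many copies and names with 1 copy.

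**Figure D1:**
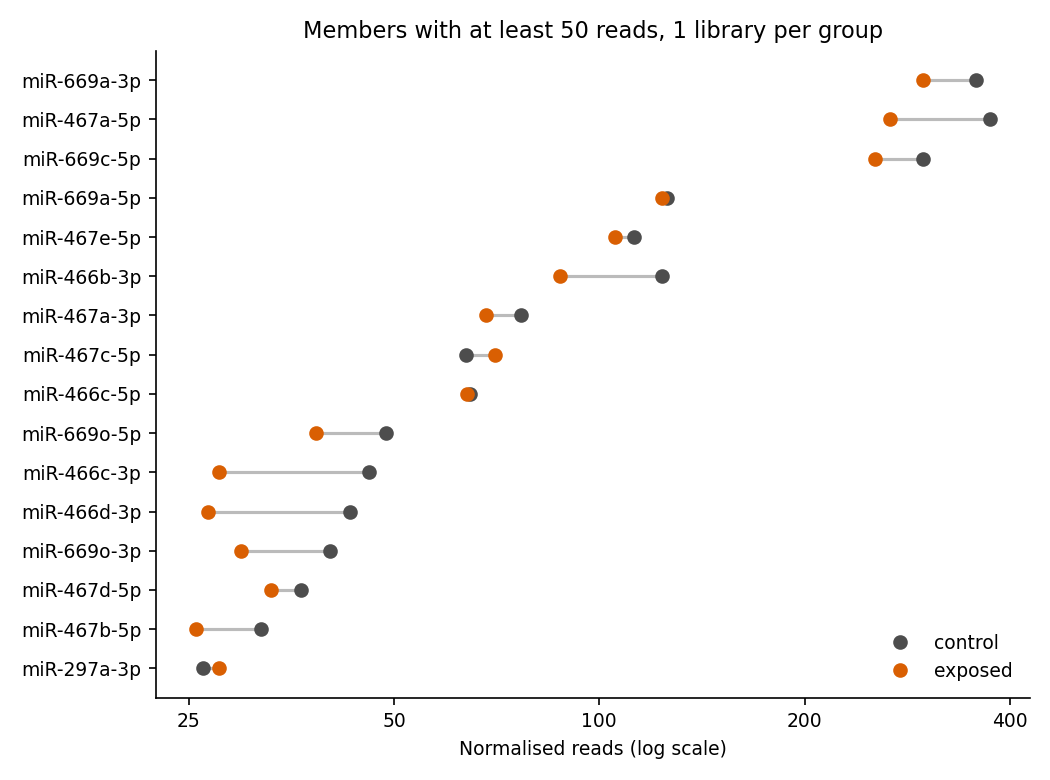
Normalised reads (log axis) of the 16 members that had 50 reads or more over both libraries, with a grey point for control mice, an orange point for exposed mice and a line joining them (1 library per group, no error bars). The exposed point lies to the left of the control point for 14 of the 16, with miR-467c-5p and miR-297a-3p as the exceptions.

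Reads were then set along the array, with the reads of a name divided evenly over its hairpins. miR-669c stood highest, 42.6 kb from the first hairpin, with 318 reads per hairpin in control and 238 in exposed mice. miR-467e followed, with 127 and 105 reads per hairpin, then, in control mice, miR-669o with 95 and miR-467c with 70, each from 1 hairpin. In exposed mice miR-467c (69) stood above miR-669o (64). The 10 hairpins of miR-467a had 48.1 reads each in control and 31.4 in exposed mice. miR-467e, miR-669c and miR-669o lie beyond the last trio, while miR-467c belongs to the first trio. The 18 names before the trios held 85 and 63 reads, the 18 names within them 893 and 614, and the 28 names beyond them 717 and 532. Another 5 names, those of miR-669a among them, have hairpins in more than 1 of these stretches (549 and 428 reads). As shares of the cluster's reads, the stretch within the trios held 39.4% in control and 37.1% in exposed mice, and the stretch beyond them 31.7% and 32.2%.

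**Figure D2:**
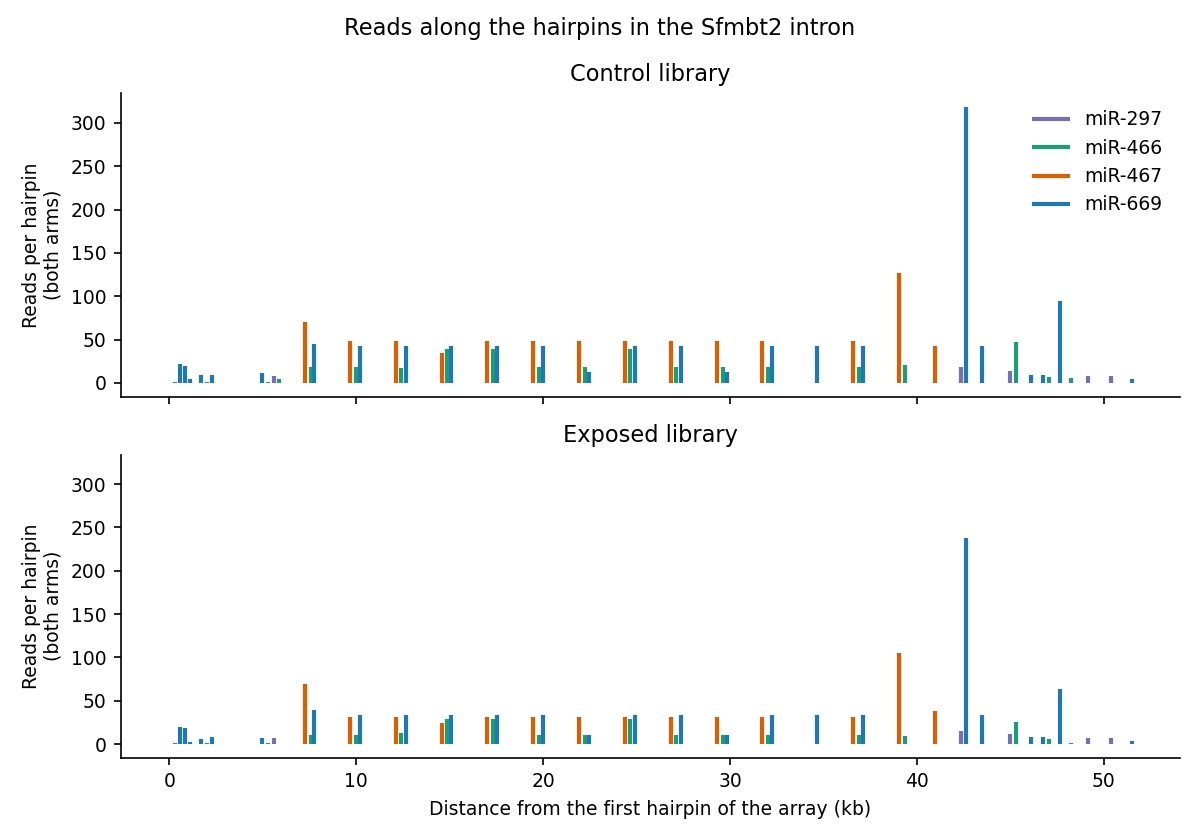
Reads per hairpin of both arms in the control library (top) and the exposed library (bottom) against the distance from the first hairpin of the array in kb, with 1 line for each of the 72 hairpins, coloured by subfamily. The hairpin Mir466, whose name has no letter, was assigned no counted name and so has no height. Reads of a name with several hairpins were divided evenly over them, so the equal lines of miR-467a, of miR-466b and of 11 of the 12 miR-669a hairpins are set by that division (the other, Mir669a-3, also carries the reads of miR-669a-3-3p), and the highest line is miR-669c at 42.6 kb in both libraries.

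Within miR-466, the 3p miRNAs differed in reads per hairpin. miR-466b-3p had 16.5 reads per hairpin in control mice over 8 hairpins, and miR-466c-3p had 16.3 over 3 hairpins, whereas miR-466f-3p had 0.25 over 4 hairpins in each library. miR-466p-3p, with 1 hairpin, had 21 reads. miR-466d-3p stood above these, with 46 reads from 1 hairpin. In exposed mice the values were 10.2, 8.67, 9 and 25 reads per hairpin for miR-466b-3p, miR-466c-3p, miR-466p-3p and miR-466d-3p, in which miR-466d-3p again stood highest.

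A read that fits several hairpins could have been counted at each. Counts of mature miRNAs outside the cluster that have 2 hairpins in the sequence table were even in 44.1% of cases (30 of 68 counts above 0), against 41.3% (496 of 1202) of those with 1 hairpin. Counting at both hairpins under 1 name would make such counts even. The counts of miR-467a-5p were 399 and 250, of which 399 is not a multiple of its 10 hairpins. A read need not fit all 10 equally well, so these counts cannot decide whether reads were counted at several hairpins. How a read was divided between names that resemble each other, such as miR-467a and miR-467b, was not tested, and values of single names are uncertain to that extent.

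The arms differed by subfamily. In miR-467 the 5p arm led, with 660 of 755 reads in control mice (87.4%, exact 95% interval 84.8 to 89.7) and 470 of 550 in exposed mice (85.5%, 82.2 to 88.3). In miR-466 the 3p arm led, and the 5p arm held 25.3% (21.1 to 29.9) and 29.3% (23.7 to 35.5). In miR-297 the 5p arm held 12.3% (5.47 to 22.8) and 5.66% (1.18 to 15.7), from 65 and 53 reads. miR-669 was the most even, with 56.8% (53.7 to 59.8) in control and 57.6% (54.1 to 61.0) in exposed mice. In all 4 subfamilies the intervals of the libraries overlapped.

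Over all members with an arm, the 5p arm held 60.3% of the reads in control mice (58.2 to 62.3) and 61.1% in exposed mice (58.7 to 63.4). That share depends on single names with many reads. Without miR-669a-3p, the member with the most reads in both libraries together, it was 72.5% and 73.6%. Leaving out a 3p name can only raise the 5p share. Leaving out a 5p name such as miR-467a-5p (399 and 250 reads) would lower it. For each of the 12 names with at least 50 reads over both arms, the same arm led in both libraries. miR-669c was the most one-sided, with 318 and 238 reads of the 5p arm and 0 of the 3p arm in both libraries. Within the subfamilies the leading arm differed between names. miR-466c had more 5p than 3p reads (69 and 49 in control, 60 and 26 in exposed mice), against the 3p lead of miR-466. miR-669a had more 3p than 5p reads, as did miR-669f with fewer reads (14 and 8 in control, 16 and 4 in exposed mice). The names miR-466b and miR-466c therefore led with opposite arms.

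**Figure D3:**
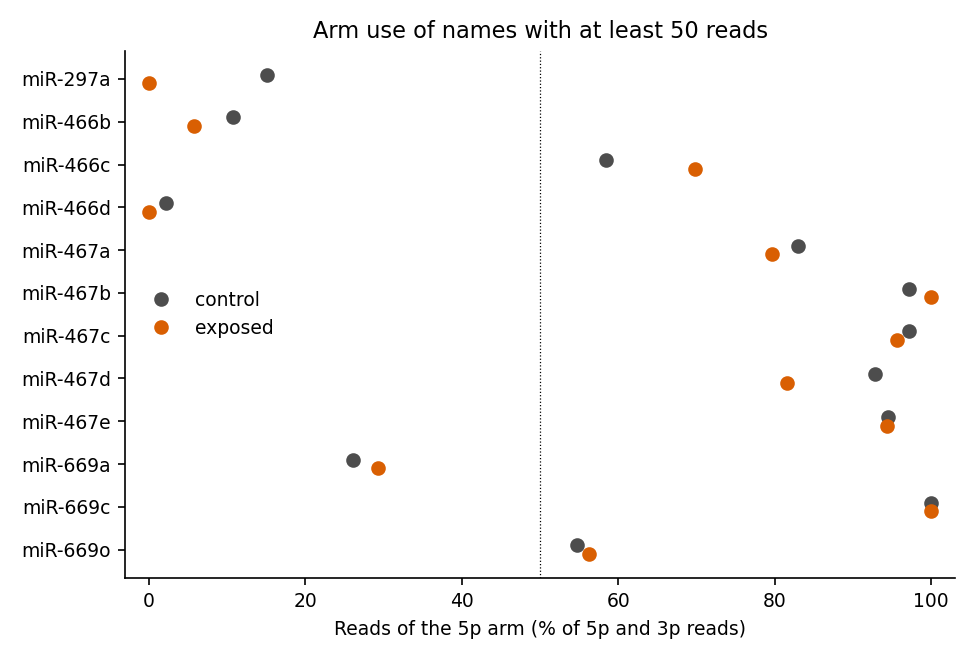
Share of the 5p arm (percent of the 5p and 3p reads) for the 12 names with at least 50 reads over both arms, in control (grey) and exposed mice (orange), with a dotted line at 50%. Each pair of points lies on the same side of the line, with all 5 miR-467 names to the right and miR-297a, miR-466b, miR-466d and miR-669a to the left.

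Control and exposed mice were compared by the log2 ratio of their reads (exposed over control) after scaling by the size factors, with the exact 95% interval of the read counts (Clopper-Pearson). A minimum of 10 reads over both libraries left 484 mature miRNAs, to which a 2-sided exact binomial test with Benjamini-Hochberg adjustment was applied. Calls needed an adjusted p under 0.05 and, as the size minimum, a log2 ratio of 0.5 or more in either direction. With 1 library per group the test compares the libraries and not the conditions, and intervals cover counting error only. Reads carry no molecular identifiers that the sources name, so even that error may be too small.

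Summed over the 80 names, the cluster went from 2123 normalised reads in control to 1764 in exposed mice, a log2 ratio of −0.27 (−0.36 to −0.17), or 1.20-fold lower. Of the 33 members with enough reads to be tested, 25 had a log2 ratio below 0 and 8 above, with a median of −0.18. Over the 451 other tested miRNAs, 239 (53.0%) were below 0, against 75.8% of the tested members, and their median was −0.03. At or under the cluster's summed log2 ratio of −0.27 were 117 of these others (25.9%) and 14 of the tested members (42.4%). None of the 33 members was called, against 2.89% of all tested miRNAs. At any size 1 was lower, against 9.3% of all tested miRNAs, and 0 were higher, against 8.26%. At an unadjusted p under 0.05 there were 5 of the 33 members (15.2%), against 28.8% of the other tested miRNAs. The members were read less deeply than the rest, with a median of 40 reads in both libraries together against 118.5 over all tested miRNAs. Most members thus lay slightly below 0, and single members rarely passed the test. Of the 33, 32 have hairpins in the same intron, and all were read in the same 2 libraries. Their directions are therefore not independent observations.

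**Figure D4:**
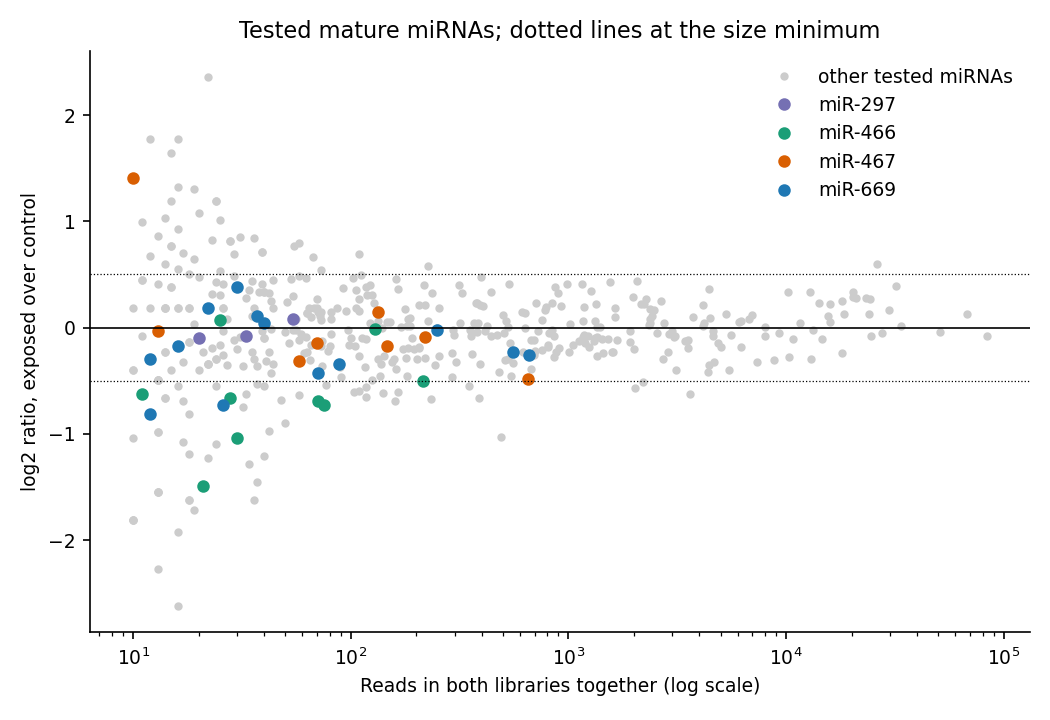
The log2 ratio (exposed over control) against the reads in both libraries together (log axis) for the 484 tested mature miRNAs, with the 33 tested members coloured by subfamily and all others in grey. Dotted lines mark log2 ratios of 0.5 and −0.5. Of the members, 25 lie below 0, and those beyond the dotted lines have at most 75 reads or, like miR-466b-3p, lie at the line.

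miR-467a-5p was the member that passed the test at any size. It went from 399 reads in control to 250 in exposed mice, a log2 ratio of −0.49 (−0.72 to −0.26, adjusted p = 0.00024 in the exact binomial test), which is 1.40-fold lower and just short of the size minimum. With scaling by total reads its log2 ratio was −0.54 and it was called. With its reads divided by its 10 hairpins, which leaves fewer reads to test, the log2 ratio stayed at −0.49 and the adjusted p was 0.471. Over the other settings of the exact binomial test its adjusted p ranged from 3.05e-05 to 0.000679. With edgeR's exact test, which uses an estimated dispersion, miR-467a-5p did not pass either (unadjusted p = 0.0597, adjusted p = 1.0). The other arm, miR-467a-3p, had 82 and 64 reads (−0.17, −0.67 to 0.32, adjusted p = 0.787). In contrast, miR-467c-5p from 1 hairpin of the first trio had 68 and 66 reads (0.14, −0.37 to 0.65), miR-467e-5p 120 and 99 (−0.09), miR-467d-5p 39 and 31 (−0.14), and miR-467b-5p 34 and 24 (−0.32). The interval of each of these names held 0.

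The summed reads of miR-467 were 755 in control and 550 in exposed mice, a log2 ratio of −0.27 (−0.43 to −0.11). This value rested on miR-467a-5p: without it the log2 ratio was −0.06, and with reads divided by hairpins it was −0.08. Of the 8 miR-467 members tested, 6 were below 0 and 2 above, with a median of −0.12.

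miR-466 had the lowest log2 ratio of the 4 subfamilies, with 394 reads in control and 247 in exposed mice (−0.49, −0.72 to −0.25). Of its 9 tested members 8 were below 0, and their median was −0.66. Without its most-read member, miR-466b-3p, the summed log2 ratio was −0.48. miR-466b-3p itself had 132 and 82 reads (−0.50, −0.92 to −0.09, adjusted p = 0.0723 in the exact binomial test), at the size minimum and short of the threshold. It passed with scaling by total reads (adjusted p = 0.032) and when miRNAs with at least 50 reads alone were tested (adjusted p = 0.0495), and over its alternatives the adjusted p ranged from 0.032 to 0.722 (1.0 with edgeR's exact test).

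Of the 7 tested 3p miRNAs of miR-466, 6 were below 0 and miR-466e-3p, with 13 and 12 reads, was at 0.07. miR-466c-3p had 49 and 26 reads (−0.73, −1.47 to −0.01, exact binomial test, adjusted p = 0.153), and miR-466d-3p 46 and 25 (−0.69, −1.46 to 0.04). miR-466p-3p, with 21 and 9 reads, was next to the lowest in log2 ratio among the tested members (−1.04, −2.35 to 0.15). Lowest was miR-466b-5p, with 16 and 5 reads (−1.49, −3.29 to 0.02). Summed, the 3p arm of miR-466 had 292 and 171 reads (−0.59, −0.87 to −0.31) and the 5p arm 99 and 71 (−0.29, −0.75 to 0.16). miR-466c-5p, which has most of these 5p reads, had 69 and 60 (−0.02, −0.54 to 0.51). The intervals of the arms overlap, and a difference between the arms was not tested.

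miR-669 held the most reads, 1051 in control and 804 in exposed mice (−0.20, −0.33 to −0.07). Of 13 tested members 9 were below 0 and 4 above, with a median of −0.23. miR-669a-3p had 380 and 280 reads (−0.25, −0.48 to −0.03, adjusted p = 0.113 in the exact binomial test) and passed the threshold at any size with scaling by total reads (adjusted p = 0.036, the lowest over its alternatives, which reached 0.782, or 1.0 with edgeR's exact test). miR-669c-5p had 318 and 238 reads (−0.23, −0.48 to 0.02, adjusted p = 0.208), and miR-669a-5p 134 and 116 (−0.02, −0.39 to 0.35). The arms of miR-669o, at 52 and 36 reads for 5p and 43 and 28 for 3p, had log2 ratios of −0.34 and −0.43, with intervals that held 0.

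The remaining members at the ends of the range had few reads. miR-669f-5p, next above these at the low end, had 8 and 4 reads (−0.81), whereas miR-669f-3p from the same hairpin had 14 and 16 (0.38, −0.75 to 1.52) and was next to the highest. The highest was miR-467d-3p, with 3 and 7 reads (1.41, −0.72 to 3.99), and miR-669m-5p had 11 in both libraries (0.19). None of these passed the test. The arms of miR-669f and of miR-467d thus lay on opposite sides of 0, with intervals that overlap.

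miR-297 had the fewest reads and no common direction. Its summed reads were 65 in control and 53 in exposed mice (−0.11, −0.66 to 0.44), and 2 of the 3 tested members were below 0. miR-297a-3p had 28 and 26 reads (0.08, −0.75 to 0.90, adjusted p = 0.981 in the exact binomial test).

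By arm, the 5p miRNAs of the cluster summed to 1364 reads in control and 1007 in exposed mice (−0.25, −0.37 to −0.13), and the 3p miRNAs 898 and 642 (−0.30, −0.45 to −0.15). The arms were lower by similar amounts, with 12 of 16 tested 5p and 13 of 17 tested 3p miRNAs below 0. Without the 10 most-read names the summed log2 ratio of the cluster was −0.31 (−0.50 to −0.11). The stretches of the array also gave values below 0, at −0.25 (−0.74 to 0.24) before the trios, −0.35 (−0.50 to −0.20) within them, where miR-467a lies, and −0.24 (−0.41 to −0.08) beyond them. The 5 names with hairpins in more than 1 stretch, those of miR-669a among them, were at −0.17 (−0.36 to 0.01), an interval that held 0. Arms and stretches divide the same reads of the same libraries, so these values are not independent of each other.

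**Figure D5:**
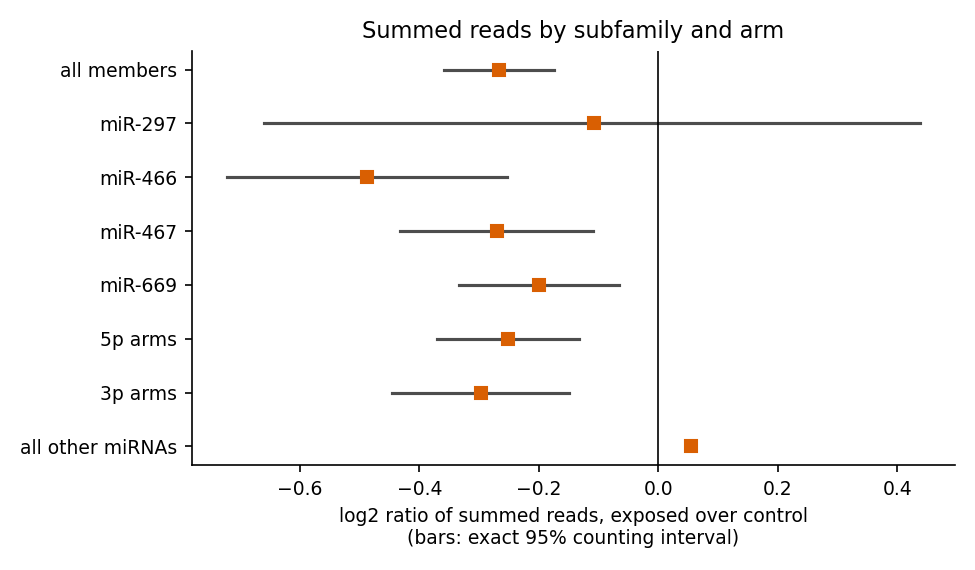
The log2 ratio of summed reads, exposed over control mice, for all members, each subfamily, each arm and all other mature miRNAs, with bars for the exact 95% counting interval. miR-466 lies lowest at −0.49, the interval of miR-297 holds 0, and the summed reads of all other miRNAs lie at 0.05. The median log2 ratio of the other tested miRNAs was −0.03.

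Among miRNAs with at least 50 reads, the log2 ratios of the 16 members had a median of −0.24 and an interquartile range from −0.45 to −0.07. The 301 others had a median of −0.03 and an interquartile range from −0.20 to 0.18, which overlaps that of the members. edgeR's exact test, whose dispersion was estimated with both libraries as 1 group, allows more error than counting alone. By this test 0 of the 33 members passed an adjusted p under 0.05, and 0 passed at an unadjusted p under 0.05, where the smallest was 0.0542 for miR-466b-5p. Over all 484 miRNAs that test gave 0 and 18.

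The miRNAs between Dlk1 and Dio3 on chromosome 12, another large cluster in an imprinted region, were read in the same libraries. Their 113 names summed to 2055 reads in control and 1571 in exposed mice, about as many as the Sfmbt2 cluster, with a summed log2 ratio of −0.20 (−0.30 to −0.11). Of their 31 tested members, 16 were below 0 and 15 above, with a median of −0.15, 0 called and 2 lower at any size. The intervals of the summed reads of both clusters overlap, and a difference between the clusters was not tested.

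miRNAs that mark other cells were read beside the cluster, since it is known from stem cells. The 7 listed miRNAs of pluripotent cells, of the miR-290 and miR-302 groups, had 60 reads in all in control and 61 in exposed mice, with miR-302a-3p and miR-302d-3p at 0 in both. The 4 listed germ cell miRNAs had log2 ratios between −0.08 and 0.01. They do not stand for all germ cell miRNAs, which lay on both sides of 0, such as miR-34b-5p at 0.60 and miR-878-3p at −0.63. The part of germ cells in the lower reads of the Sfmbt2 cluster was not tested.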

How the data were processed

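RNA from decapsulated testes (1.5 µg, RIN above 9) was sequenced as single-end reads of 65 nucleotides (MiSeq). Per the labels and the study's methods, the authors checked reads with FastQC, trimmed adapters with cutadapt, kept reads of 12 nucleotides or more, aligned them to mm10 with bowtie (at most 3 mismatches, all best alignments) and counted them with HTSeq on miRBase v21. DESeq is also named in the submitters' notes. Tool versions: not given in the sources used here. The deposited counts are not normalised and give whole reads for each mature miRNA. A line of ambiguous reads (2919 in control, 0.528%, and 2595 in exposed mice, 0.515%) names no miRNA and was left out of totals and tests. The line for reads not aligned uniquely held 0 in both libraries.

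Size factors, binomial tests and intervals were computed as the results state, with Python 3.11.15, numpy 2.4.6, scipy 1.17.1 and pandas 2.3.3. The code for the tests and intervals was run on simulated counts that held counting error alone. That run cannot show how the test behaves with variation between mice or libraries. edgeR 4.0.16 (R 4.3.3) gave TMM factors and the exact test with a dispersion. Sums over members and shares of arms carry intervals and no p. At an unchanged level, 20 reads in control mice leave a log2 interval from −0.97 to 1.03, and 400 reads one from −0.21 to 0.21. Hairpins were matched by name to RefSeq genes on GRCm38, which is mm10. Strands and introns were taken from the GENCODE annotation. Alternatives were other scalings, division by hairpins, other minimums of reads and size, a pseudocount of 0.5, and members left out.

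Members named with their values had at least 50 reads in both libraries together, passed an adjusted p under 0.05 at any size, or were among the 3 highest or 3 lowest log2 ratios tested. Other names were chosen after their values were seen. The members, the lists, the stretches of the array and the tests were chosen with earlier results of these data known.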

Additional observations from a re-analysis of the deposited data

How the results depend on the processing

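The summed log2 ratio of the cluster stayed below 0 in all 6 alternatives run, from −0.32 (total reads) to −0.21 (reads divided by hairpins), and was −0.22 without miR-467a-5p, which was chosen after seeing the data. The median over tested members ranged from −0.24 to −0.15. Counts of calls moved. Members called were 2 with scaling by total reads, whether or not the 10 most abundant miRNAs were left out (miR-466b-3p and miR-467a-5p in both), and 1 with a minimum of 50 reads (miR-466b-3p). Members lower at any size were 3 with total reads, 2 without the 10 most abundant, 2 with a minimum of 50 reads, 0 with reads divided by hairpins and 0 with edgeR's exact test. Of all miRNAs, 14 were called in the main setting, and the alternatives moved this count too. It was 20 with total reads, 17 without the 10 most abundant and 12 with a minimum of 50 reads. With a size minimum of 1.0 it was 5, and with edgeR 0. For the counts lower at any size, the background under these alternatives is not given here. The 5p share was 72.5% in control and 74.1% in exposed mice with reads divided by hairpins. Without the most-read member, the 3p miRNA miR-669a-3p, it was 72.5% and 73.6%. The summed miR-467 reads were at −0.08 with reads divided by hairpins and −0.06 without miR-467a-5p. Of 87 values of named members tested under other scalings or with reads divided by hairpins, 4 crossed the threshold of the exact binomial test: miR-466b-3p (adjusted p = 0.032) and miR-669a-3p (0.036) with total reads, miR-466b-3p without the 10 most abundant miRNAs (0.05, just under the threshold before rounding), and miR-467a-5p with reads divided by hairpins (0.471). With a minimum of 50 reads miR-466b-3p crossed it too (0.0495). Names with 1 identical mature sequence were not merged, since most sequences were not used here. No paired analysis was possible because each group has 1 library. Depth limits single members: 17 of the 33 tested had fewer than 50 reads.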
